A study of Homo sapiens with 4 samples.

Results

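The genes described here are 7 of the 858 in the authors' deposited table, the Polycomb-linked proteins PHC1 and BCOR and the transcription factors MEF2A, PAX6, LMX1B, ZBTB46 and ZNF304. They were found by their symbols in the table, and they had been picked with their fold changes in this same comparison in view. Their fold changes and p-values are therefore a description and carry no test. The RNA came from MiaPaca-2, an established cell line of human pancreatic cancer, with 2 samples carrying a short hairpin RNA against the arginine methyltransferase PRMT1 (shPRMT1) and 2 carrying a non-targeting hairpin (shNTC). The labels give no further treatment, and do not say how the hairpins were delivered or whether the replicates were separate cultures. Both samples against PRMT1 carry the same name, shPRMT1, which does not tell whether they share a hairpin. The authors' p-values may thus rest on technical spread alone, and other effects of the hairpin or hairpins cannot be told apart from loss of PRMT1.

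For each gene the table gives a ratio of both groups on the linear and the log2 scale with its unadjusted and adjusted p, and no value of a single sample. No replicate spread, expression level or sequencing depth can be set beside a ratio. The numerator is not named. It was taken to be shPRMT1, since PRMT1 itself stood at 0.356 in the authors' deposited table, or -1.49 on the log2 scale (p = 0.0156 and adjusted p = 0.411). With the opposite reading every direction below would turn round. Of 30 markers for 8 cell types, the table held 1, the epithelial keratin KRT19 (-0.24 on the log2 scale in the authors' deposited table). The labelled cell type could not be checked further from a list of genes chosen by p.

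Polycomb proteins keep developmental genes silent. One of their assemblies, Polycomb repressive complex 1 (PRC1), attaches ubiquitin to histone H2A. PHC1 belongs to its canonical forms, and BCOR builds a variant form that is brought to unmethylated CpG-rich DNA. The other members bind DNA themselves: MEF2A is best known from muscle and neurons, PAX6 from the eye, forebrain and pancreatic islets, LMX1B from limb, kidney and midbrain, ZBTB46 from dendritic cells, and ZNF304 is a zinc finger protein with a KRAB repression domain.

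The direction was mixed. In bulk RNA, a ratio does not tell fewer expressing cells from less RNA per cell. PHC1, MEF2A and PAX6 were listed lower in shPRMT1, and BCOR, LMX1B, ZBTB46 and ZNF304 were listed higher. The median log2 fold change was -1.61 over the 3 lower members and 1.52 over the 4 higher ones, where all 501 lower and 357 higher genes of the authors' deposited table had medians of -0.28 and 0.28. At an adjusted p under 0.05, 0 of the 7 passed in the authors' deposited table, with values from 0.335 to 0.442. Of the 7640 genes that its adjusted p-values imply were tested, 0.0131% passed that threshold (1 gene). All 7 had an unadjusted p under 0.05, which every gene in the table has and 11.2% of the tested genes reached (6.56% lower and 4.67% higher). All 7 members also differed by 1 or more on the log2 scale, as did 58 genes in all, 0.759% of those tested (0.301% lower and 0.458% higher). That count restates how the members were picked.

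**Figure D1:**
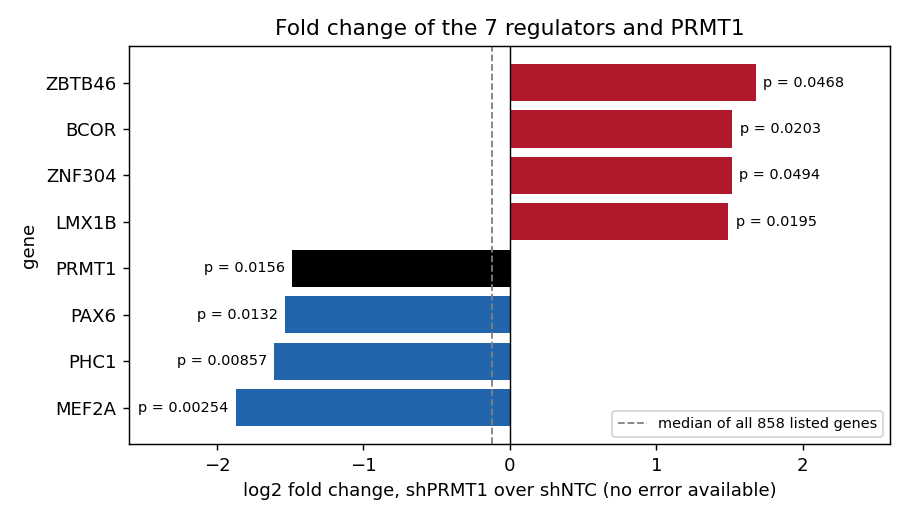
Bars give the log2 fold change (shPRMT1 over shNTC) of the 7 regulators and of PRMT1 from the authors' deposited table, with the unadjusted p beside each; no error can be drawn because the table has no sample values. The 3 lower members reach from -1.87 to -1.54, past PRMT1 at -1.49, and the 4 higher ones from 1.49 to 1.68, while the dashed line marks the median of all 858 genes at -0.12.

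PHC1 (ENSG00000111752.6) is a polyhomeotic subunit that links PRC1 complexes to each other through its SAM domain. Its ratio was 0.328 in the authors' deposited table, so that shPRMT1 stood at 32.8% of shNTC (log2 fold change -1.61, p = 0.00857, adjusted p = 0.390). It ranked 15th of 858 by absolute log2 fold change and 9th among the lower genes. The paralogue PHC2 was also in the authors' deposited table, at -0.21 (p = 0.0460), and PHC3 was not. PHC1 has a pseudogene copy, PHC1P1, which matched 57.1% of the longest PHC1 transcript (2875 nt) at 98.8% identity. Reads from that stretch may be shared between both genes, and 22.0% of the PHC1 transcript lies antisense to M6PR, so the PHC1 value is uncertain.

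PHC1 has 2 annotated promoter windows, each covering 250 bases before and 50 after a start. At neither start were the first 50 transcribed bases found in a GENCODE 29 transcript of PHC1. The windows differ in base composition, with 37.0% and 72.3% G or C. The first holds the single TAATTA (the core that many homeodomain proteins bind) among the members' 19 windows, a match found in 4.84% of 35114 RefSeq promoter windows, and the single TATAAA, found in 11.5%. It is shown because it has the lowest share of G and C of the members' windows; the line gives the 250 bases before the start on the plus strand (chr12:8913593-8913842, GRCh38.p14, RefSeq), none of them exonic in GENCODE 29, with its 10 CpG dinucleotides in capitals.
PHC1 window 1: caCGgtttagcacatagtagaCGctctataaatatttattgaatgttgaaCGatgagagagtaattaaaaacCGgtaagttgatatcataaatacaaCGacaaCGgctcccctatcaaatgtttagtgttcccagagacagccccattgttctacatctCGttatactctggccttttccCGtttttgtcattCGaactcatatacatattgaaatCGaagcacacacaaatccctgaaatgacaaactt

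BCOR (ENSG00000183337.12) is a corepressor of BCL6 and the scaffold of the variant PRC1 that contains PCGF1 and KDM2B. Its ratio was 2.87 in the authors' deposited table, or 1.52 on the log2 scale (p = 0.0203 and adjusted p = 0.431), the opposite direction to PHC1. It ranked 18th of all genes by size and 7th among the higher ones. Its adjusted p was shared with 26 genes in all, LMX1B among them, because the adjustment gives runs of neighbouring p-values the same value. No other annotated gene overlaps BCOR, and no other gene's transcript matched its longest one over 100 nt at 95% identity. The first of the 2 BCOR windows has 7 CpG dinucleotides and the second has 29.

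The few other PRC1 genes that were listed had smaller fold changes. PHC1 and BCOR were picked with their fold changes in view, so this contrast in size carries no weight. Of 37 PRC1 genes besides PHC1 and BCOR, 4 (10.8%) appear in the authors' deposited table, with 3 on the lower side and 1 on the higher, against 11.2% of all genes tested. On the lower side were PHC2, the MBT-domain reader L3MBTL2 at -0.12 (p = 0.0139) and SKP1, a cullin ligase adaptor found in the BCOR complex, at -0.07 (p = 0.00400) in the authors' deposited table. The deubiquitinase USP7 stood higher, at 0.16 (p = 0.0315) in the authors' deposited table. The median of these 4 was -0.10, close to the -0.12 of all listed genes. The table held 0 of 15 genes of PRC2, the complex that methylates histone H3, 0 of 18 genes that oppose Polycomb and 0 of 22 other genes of the BCL6 corepressor list. Whether an unlisted gene missed the p threshold or was left untested cannot be told.

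MEF2A (ENSG00000068305.13), a MADS-box factor that switches between activation and repression by exchanging coactivators for class IIa histone deacetylases, had the largest fold change of the 7. Its ratio was 0.273 in the authors' deposited table, or -1.87 on the log2 scale (p = 0.00254 and adjusted p = 0.335). That placed it 7th of 858 by size, 4th among the lower genes and 57th by p. It had the lowest p of the 7 members.

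Of 24 further genes of the MEF2 family and its cofactors, 3 (12.5%) were in the authors' deposited table, close to the 11.2% of all genes tested. All 3 stood on the higher side, as did 4.67% of all genes tested. How many of the 24 were tested is unknown. HDAC5, a class IIa deacetylase that binds MEF2 factors and represses through them, was listed at a 2.01-fold higher level in the authors' deposited table, or 1.01 on the log2 scale (p = 0.0340 and adjusted p = 0.432). CABIN1, another MEF2 corepressor, stood at 0.48 (p = 0.00815), and the coactivator MAML1 at 0.28 (p = 0.0218) in the authors' deposited table. MEF2B, MEF2C and MEF2D were not among the listed genes. Of 25 genes known as MEF2 targets in muscle, neurons or endothelium, 0 were listed, where 11.2% of all genes tested were. How many of the 25 were tested is unknown, so no change or lack of change in them can be read from this count.

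MEF2A has 3 promoter windows. The pattern searched for MEF2 sites was CTA and TAG with any 4 bases between them, and the second window holds a match 23 bases before the start. This was the single match among the members' 19 windows. The pattern reads the same on both strands and is found in 2.73% of all promoter windows and 1.54% of those of listed genes. It leaves the 4 middle bases free and is looser than a MEF2 site, so these are not shares of MEF2 sites. The window lies inside an exon of other MEF2A transcripts, so 30 bases of it are given (chr15:99565951-99565980, plus strand, GRCh38.p14, RefSeq), with the match in capitals because it carries the letters that MEF2 proteins bind.
MEF2A window 2: ggcttgtctcCTAAAAATAGccccggtgtg
The letters alone do not show that any factor binds there. MEF2A also shares 13.2% of its longest transcript with LYSMD4 on the other strand.

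PAX6 (ENSG00000007372.16) carries a paired domain and a homeodomain and is required for eye and islet development. Its ratio was 0.345 in the authors' deposited table, or -1.54 on the log2 scale (p = 0.0132 and adjusted p = 0.408), 17th overall by size. The 8 other PAX genes were not listed. Of 23 further genes of the endocrine pancreas programme, islet hormones included, 0 were in the authors' deposited table, as were 0 of 23 eye and forebrain partners of PAX6. Of 26 factors of pancreatic progenitor, ductal and acinar cells, the 1 listed was the epithelial ETS factor EHF, at 0.40 in the authors' deposited table (p = 0.00355 and adjusted p = 0.364). Over all genes tested 11.2% were listed, but how many genes of these lists were tested is unknown.

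The PAX6 locus is crowded. GENCODE 29 gives PAX6 84 transcripts, where the median listed gene has 7.5, and RefSeq gives it 9 of the members' 19 promoter windows. ELP4, on the other strand, covers 71.7% of the longest PAX6 transcript (5230 nt). The sources used here do not say whether reads were counted by strand, and reads of both genes cannot be told apart without it. ELP4 was not among the listed genes.

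LMX1B (ENSG00000136944.13) is a LIM homeodomain factor of dorsal limb, podocytes and monoamine neurons. Its ratio was 2.81 in the authors' deposited table, or 1.49 on the log2 scale (p = 0.0195 and adjusted p = 0.431), the smallest of the 7 in absolute size and 20th of 858. Of 21 further LIM homeodomain factors and cofactors, 1 was listed. This was RLIM, a ubiquitin ligase that degrades the LDB cofactors of LIM proteins, at 0.25 (p = 0.0392) in the authors' deposited table. None of 20 LMX1B targets and partners was listed. The share over all genes tested was 11.2%, and it is unknown how many genes of both lists were tested.

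ZBTB46 (ENSG00000130584.6), a BTB zinc finger repressor that marks classical dendritic cells, had the highest ratio of the 7, 3.21 in the authors' deposited table, or 1.68 on the log2 scale (p = 0.0468 and adjusted p = 0.442). It ranked 12th by size and 808th of 858 by p. None of the 17 other dendritic cell genes and none of the 3 leukocyte markers was in the authors' deposited table. ZBTB46 was the 1 listed gene of 42 protein-coding genes with a ZBTB symbol (2.38%). Beside these counts stand 11.2% of all genes tested, but how many of the genes looked up were tested is unknown. An antisense transcript, AL121845.1, covers 8.33% of the longest ZBTB46 transcript.

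ZNF304 (ENSG00000131845.10) is a KRAB zinc finger protein, a class that brings repressors to DNA. Its ratio was 2.86 in the authors' deposited table, or 1.52 on the log2 scale (p = 0.0494 and adjusted p = 0.442). BCOR had nearly the same ratio with a p of 0.0203. ZNF304 lies just inside the threshold that admits a gene to the table: 11 listed genes have a larger p, up to 0.0498, and no gene beyond the threshold is in it. Of 15 genes of the machinery that KRAB proteins recruit, the 1 listed (6.67%) was the heterochromatin protein CBX1, at -0.29 (p = 0.0292) in the authors' deposited table. Of all genes tested 11.2% were listed, and how many of the 15 were tested is unknown.

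Zinc finger genes listed beside ZNF304 had smaller fold changes, but ZNF304 was picked with its fold change in view. Besides ZNF304, the authors' deposited table holds 10 genes with a ZNF symbol, 6 of them lower and 4 higher, with a median of -0.18. Together with ZNF304 their number equals 2.14% of the 515 protein-coding genes with such a symbol, but the listed genes were not limited to protein-coding ones. Beside this stand 11.2% of all genes tested, and how many of the 515 were tested is unknown. The lower side was led in the authors' deposited table by ZNF791 at -0.45, ZNF768 at -0.29 and ZNF767 at -0.27. The higher side was led by ZNF718 at 0.76, ZNF217 at 0.26 and ZNF445 at 0.21. No ZSCAN, ZKSCAN, ZFP, SOX, FOX or KLF gene was listed, and of 39 HOX genes, many of which are Polycomb targets, the 1 listed was HOXB9 at -0.51 (p = 0.0213) in the authors' deposited table. Of the PHD finger genes named PHF, PHF6 stood at 0.28 and PHF14 at 0.25.

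**Figure D2:**
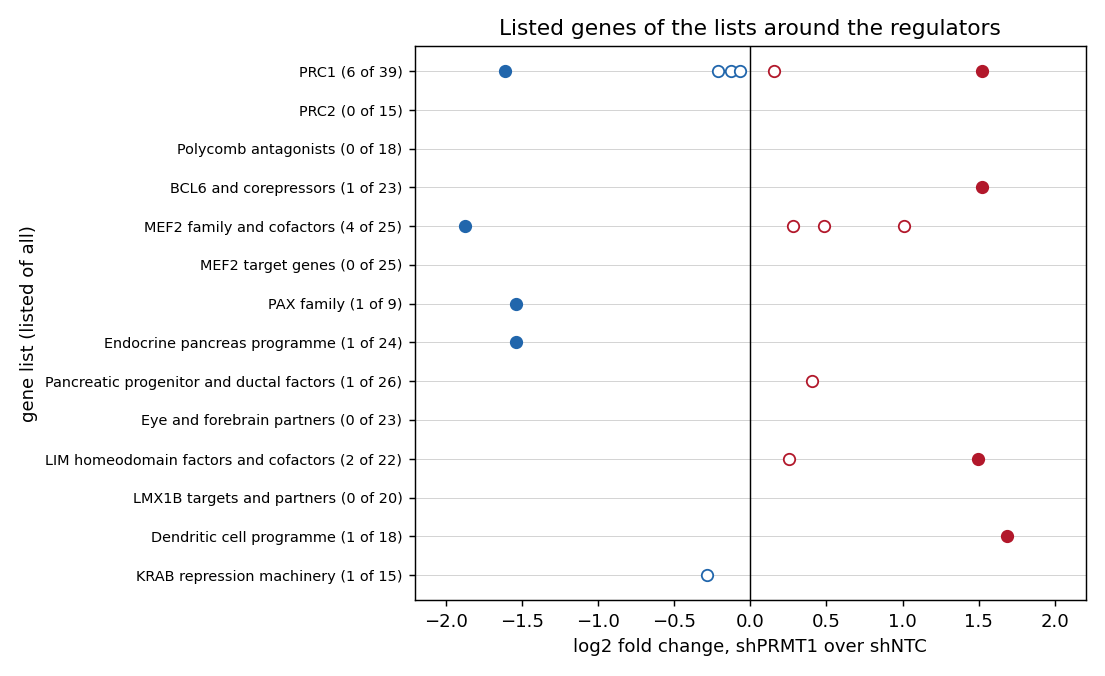
Rows are gene lists around the regulators (none shown holds ZNF304), each with the number listed of all its genes, and each circle is a listed gene at its log2 fold change (shPRMT1 over shNTC) in the authors' deposited table; filled circles are the regulators, open circles other genes, blue lower and red higher. The filled circles lie at 1.49 or beyond in absolute size, and of the open circles HDAC5 at 1.01 is the farthest out. The regulators were picked with their fold changes in view.

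Across the 15 lists, 291 genes besides the members were looked up and the authors' deposited table holds 10 (3.44%), of which 4 are lower and 6 higher, with a median of 0.21. This share is below the 11.2% of all tested genes, but how many of the 291 were tested is unknown, and expression levels were not analysed here. The lists without a listed gene besides members number 10 of 15.

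The size of a fold change and its p went apart for part of the group. The 3 lower members had the same order by both, while ZBTB46 had the largest fold change of the 4 higher ones with a p of 0.0468. The members' p-values ran from 0.00254 for MEF2A to 0.0494 for ZNF304, although their absolute log2 fold changes lay between 1.49 and 1.87 in the authors' deposited table. In the authors' deposited table, 20 genes had fold changes as large as that of LMX1B or larger, 11 lower and 9 higher, and their p-values ran from 0.00112 to 0.0494. The neighbours in size are close. In the ordered list, the gene next to ZNF304 on its upper side is BCOR, both at 1.52, and the gene next below ZBTB46 (1.68) also stands at 1.68. The order of such neighbours cannot be resolved without replicate values.

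**Figure D3:**
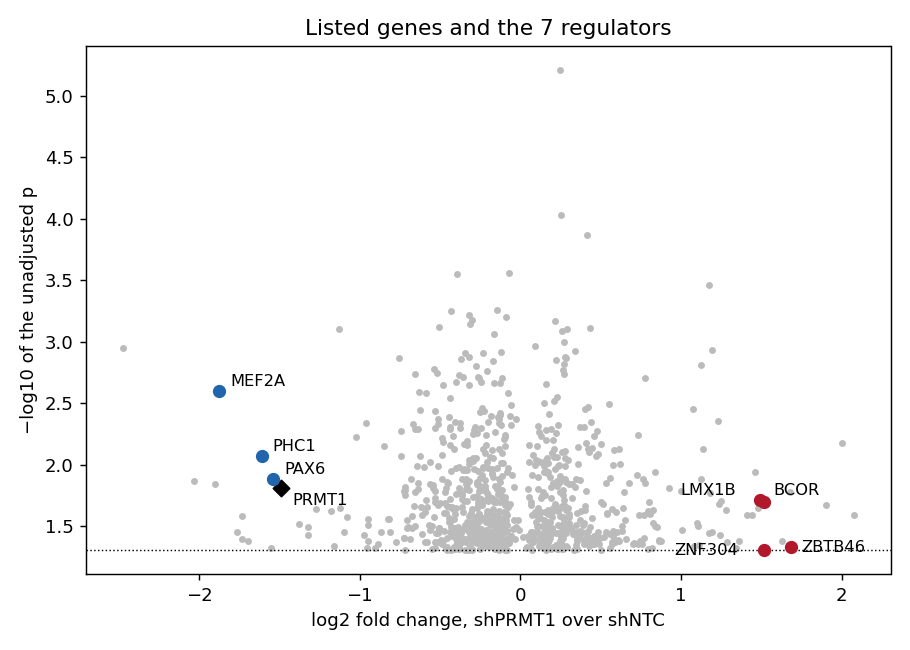
The horizontal axis gives the log2 fold change (shPRMT1 over shNTC) and the vertical axis −log10 of the unadjusted p for all 858 genes of the authors' deposited table, with the 7 regulators coloured (blue lower, red higher), PRMT1 as a black diamond and p = 0.05 dotted. MEF2A lies highest of the regulators, and ZBTB46 and ZNF304 lie next to the dotted line.

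All 7 members have long transcripts, a property not used in choosing them. Their longest annotated transcripts in GENCODE 29 ran from 4313 nt for ZNF304 to 7290 nt for PAX6, and all 7 exceed the median of 3341 nt over the 846 listed genes with an annotation. Among the 13 other genes with fold changes at least as large as that of LMX1B, 9 (69.2%) exceed it, and of the 51 other genes that differed by 1 or more on the log2 scale, 27 (52.9%) do. In 5 equal groups of increasing length, MEF2A, PHC1, LMX1B, ZNF304 and ZBTB46 fall in the fourth, where the authors' deposited table has 47.9% of genes on the lower side, and PAX6 and BCOR in the fifth, where it has 37.9%. From the shortest to the longest of these groups, the share on the lower side was 67.6%, 76.3%, 63.9%, 47.9% and 37.9%. Lower genes were thus shorter in the table, with a median of 2823 nt against 4436 nt for higher genes. The 3 lower members had a median of 5824 nt and the 4 higher ones of 5504 nt. Among the members alone, both directions occur at similar length. The proteins differ more: the longest annotated coding sequence gives 406 residues for LMX1B, 473 for PAX6, 505 for MEF2A, 589 for ZBTB46, 706 for ZNF304, 1004 for PHC1 and 1755 for BCOR.

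**Figure D4:**
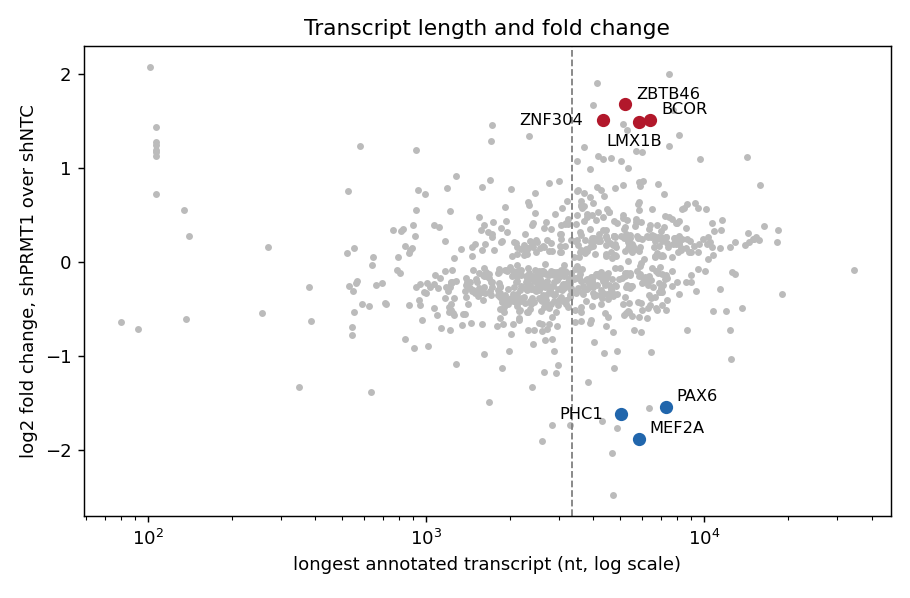
The horizontal axis gives each gene's longest annotated transcript (nt, log scale) and the vertical axis its log2 fold change (shPRMT1 over shNTC) in the authors' deposited table, for 846 genes, with the regulators coloured (blue lower, red higher) and the median length of 3341 nt dashed. All 7 regulators lie to the right of the dashed line, from 4313 to 7290 nt.

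The members lie on 7 different chromosomes (9, 11, 12, 15, 19, 20 and X), and their neighbours were mostly not listed. Of the 28 coding genes that stand first or second on either side of a member, 1 was in the authors' deposited table, ATP6AP2 beside BCOR, at -0.12. Over all genes tested 11.2% were listed, but how many of the 28 were tested is unknown. Opposite-strand genes overlap PHC1, MEF2A, PAX6, ZBTB46 and ZNF304, and a sense intronic transcript, AL161908.2, overlaps LMX1B on the same strand. None of these overlapping genes was listed.

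The promoter windows are mostly rich in CpG dinucleotides, the feature by which the BCOR form of PRC1 is brought to DNA. Each of the 7 members has a window with a ratio of observed to expected CpG of at least 0.6, as have 51.9% of 27303 RefSeq genes, and 13 of the members' 19 windows reach it against 48.9% of all windows. The count by gene takes the best window of each, and PAX6 has 9 windows. The share of listed genes with such a window was not computed. CpG-rich windows are not particular to the members: over the 972 windows of the 671 listed genes that have one, the median ratio was 0.84 with 27 CpG, against 0.58 with 14 over all windows. The members' CpG count per 300 bases ranged from 5 in a PAX6 window to 66 in the ZBTB46 window. ZBTB46 and LMX1B, both listed higher, have ratios of 1.15 and 1.01. The lower gene PHC1 has 0.98 in its first window, which holds 10 CpG at 37.0% G or C. Over the 200 bases next to the start, this PHC1 window fell to 0.67. LMX1B (0.98) then stood below a PAX6 window (1.05) and the first MEF2A window (1.01). ZNF304, also listed higher, has 0.79 with 20 CpG, and the lower gene MEF2A has 0.89 with 45 CpG in its first window. Direction and CpG content thus overlapped, and no test was made on 7 genes.

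The ZBTB46 window is shown because its CpG count is at the 99.98th percentile of all windows. The 250 bases before its start are given on the minus strand (chr20:63831265-63831514, GRCh38.p14, RefSeq), none of them exonic in GENCODE 29, with 55 CpG dinucleotides in capitals.
ZBTB46 window 1: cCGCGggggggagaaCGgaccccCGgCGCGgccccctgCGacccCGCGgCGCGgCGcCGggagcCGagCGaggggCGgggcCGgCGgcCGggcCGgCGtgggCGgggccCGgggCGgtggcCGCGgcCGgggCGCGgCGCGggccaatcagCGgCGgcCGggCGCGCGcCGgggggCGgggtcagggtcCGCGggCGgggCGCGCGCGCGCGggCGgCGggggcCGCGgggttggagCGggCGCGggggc

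**Figure D5:**
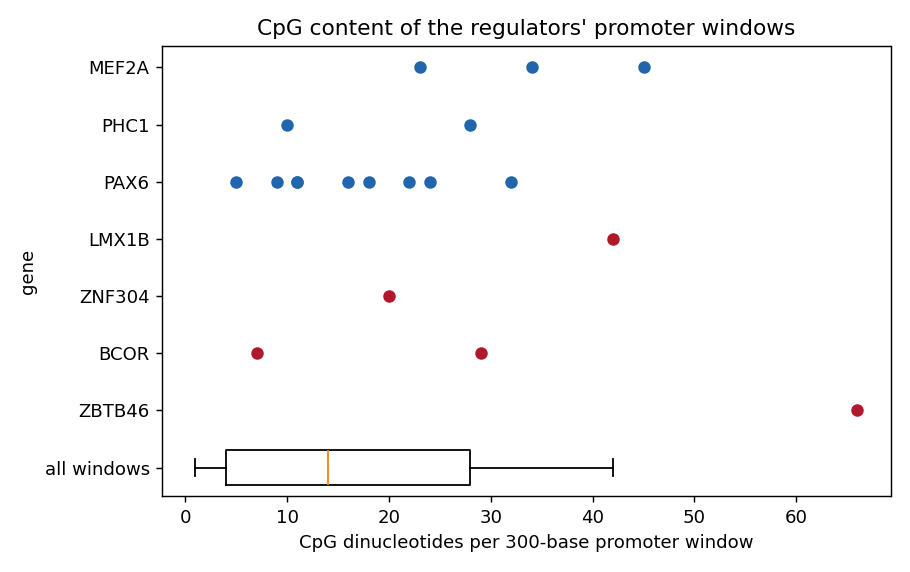
Points give the number of CpG dinucleotides in each 300-base promoter window of a regulator (blue lower, red higher in shPRMT1; points of equal count overlap), and the box gives the quartiles (4 and 28), the median (14) and the 5th and 95th percentiles (1 and 42) over 35114 RefSeq windows. ZBTB46 at 66 lies beyond the upper whisker, and PAX6 spreads from 5 to 32 over its 9 windows.

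Other short motifs were common. GGGCGG, the GC box, occurred on either strand in 12 of the members' 19 windows and in 6 of 7 members, in 45.0% of all windows and in 68.6% of the 972 windows of listed genes. CCAAT occurred in 8 windows of 5 members, in 34.6% of all windows and in 34.7% of those of listed genes. CACGTG, a form of the E-box, occurred in 1 window of BCOR, in 7.26% of all windows and in 9.47% of those of listed genes. Other forms of the E-box were not searched. None of the matches to the MEF2, homeodomain, E-box and TATA letters overlapped a match to another of these motifs. In PAX6 window 1 and in ZNF304, which differ in direction, a CCAAT box lies 54 and 78 bases before the start. PAX6 also has matches in windows 5 and 8, lying 226 and 246 bases before the start. Of the 250 bases before the start, 101 in PAX6 window 1 are exonic in PAX6. All 250 in the ZNF304 window are exonic in an overlapping antisense gene. The matches in PAX6 window 1 and ZNF304 are shown for comparison in capitals (chr11:31817998-31818027, minus strand, and chr19:57351181-57351210, plus strand, GRCh38.p14, RefSeq).
PAX6 window 1: cgggccgggcagCCAATgaggacggcgctg
ZNF304 window 1: gccggcgtgcagCCAATgacagcccagaaa
These matches are letters in a window and say nothing of binding in MiaPaca-2 cells.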

How the data were processed

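RNA sequencing of 4 samples, 2 shPRMT1 and 2 shNTC, was summarised by the authors in 1 table. The build hg19 and the tools edgeR 3.36.0, StringTie 2.2.1, HISAT2 2.2.1, deepTools and Trim Galore 0.6.7 are named per the submitters' processing notes, without their roles. The labels' extraction text describes chromatin immunoprecipitation beside a total RNA kit; molecule and library source are those of RNA. Per gene, the authors deposited a ratio (fold change), the same on the log2 scale, and unadjusted and adjusted p-values. For the test and the normalization behind them, nothing is given in the sources used here.

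No samples were tested, and depth is unknown. The number of genes tested followed from adjusted p, p and rank; 7640 came out, within 0.01, in 52 of the 53 runs of tied adjusted values. The members and the 15 gene lists were chosen with earlier results of these data known. Named genes were the members, PRMT1, all listed members of the lists and up to 3 genes per direction of each symbol family; ATP6AP2 was named after its value was seen. Transcripts came from GENCODE 29, matched for 846 of 858 genes (98.6%), and promoter windows from RefSeq (GRCh38.p14), for 7 of 7 members. In 13 of the members' 19 windows the first 50 transcribed bases were found in a GENCODE 29 transcript of the same gene. No window of PHC1, LMX1B, ZBTB46 or ZNF304 was among them. Because 78.2% of listed genes had a window, a check against them is void here, and their values are given as a description beside those of all windows. Transcript copies were sought with blastn (identity of at least 95% over 100 nt). Motifs were searched on both strands. The calculations used Python 3.11.15, numpy 2.4.6 and pandas 2.3.3. The recovery of the number of genes tested was checked on simulated data, and the motif search and CpG ratio on short made-up sequences. The other steps had no such check. Alternatives covered thresholds, offsets of all log2 values, symbol matching and the promoter window. The protein features set out in the design were not analysed here. One gene list is not reported here on its own.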

Additional observations from a re-analysis of the deposited data

How the results depend on the processing

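No paired analysis was possible because the deposited table holds no values of single samples; for the same reason no replicate was left out, and no other normalization, count model or filter on low counts was run. At an adjusted p under 0.5, 7 of 7 members and 858 genes in all passed, against 0 members and 1 gene under 0.05; under 0.1 the counts were the same as under 0.05. At unadjusted p under 0.02 and under 0.01, 4 and 2 of the 7 members passed. With all log2 values raised or lowered by 0.1, or centred on the median of listed genes (-0.12), 3 members stayed lower and 4 higher. At absolute log2 fold changes of at least 0.5 and 1.5, 7 and 6 members passed, and the 1 left out at 1.5 was LMX1B (1.49). Matching lists by gene identifier as well as symbol changed no count. Over 200 instead of 300 bases, the CpG ratio of 7 of 19 promoter windows moved by 0.1 or more, and 13 windows reached 0.6 at either length, of which 11 were the same windows. Over 200 bases, PAX6 windows 4 and 8 entered and PAX6 windows 2 and 3 dropped out. The planned ranking over genes with a RefSeq protein was not run.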
